A study of Mus musculus with 29 samples.

Results

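The HtrA serine proteases Htra1, Htra2, Htra3 and Htra4 are the 4 genes described here, out of 56748 genes counted and 12353 genes tested in RNA from the mouse aortic arch. Htra4 was chosen by its p-value, at rank 3 among the genes higher in the Ercc1 mutant than in WT littermates at 22 weeks on an ad libitum (AL) diet, and Htra1, Htra2 and Htra3 were added by family name alone. All 4 passed the filter on low counts, with more than 10 counts in each of the 28 mice used. The ercc1d/- mice (Ercc1Δ/−) carry 1 truncated and 1 null allele of Ercc1, a DNA repair endonuclease subunit, in every tissue of the animal. Their ercc1+/+ littermates (WT) came from the same crosses and had the same F1 C57BL6J/FVB hybrid background. At 6 weeks 5 WT and 5 Ercc1Δ/− mice were fed AL, at 22 weeks 4 WT and 4 Ercc1Δ/− mice were fed AL, and at 22 weeks 5 WT and 5 Ercc1Δ/− mice were on dietary restriction (DR), which began at 7 weeks with 10% less food and reached 30% from 9 weeks. Each mouse gave 1 library of the whole, PBS-perfused arch, and 17 of the 28 mice were male.

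HtrA proteases carry a trypsin-like catalytic domain followed by a PDZ domain and act as homotrimers without ATP. HtrA1, HtrA3 and HtrA4 are secreted and share an amino-terminal module with an insulin-like growth factor binding protein (IGFBP) domain and a Kazal-like domain, and HtrA1 cleaves matrix proteins and proteins of the TGF-beta pathway. HTRA1 is known in the vasculature because its loss causes a hereditary disease of small cerebral arteries in which smooth muscle cells are lost. HtrA2 (Omi) is a protease of the mitochondrial intermembrane space that takes part in protein quality control and, once released, binds inhibitor of apoptosis proteins. HtrA4 is best known from placenta.

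The stretch that makes the members 1 family is shown by the coding bases around the catalytic serine, whose codon is in capitals. They were read 5′ to 3′ from the canonical transcripts of GENCODE M39 on GRCm39 and lie in coding exons that are joined in the mature RNA.
Htra1: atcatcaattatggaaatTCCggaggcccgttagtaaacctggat
Htra2: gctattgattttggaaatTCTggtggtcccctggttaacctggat
Htra3: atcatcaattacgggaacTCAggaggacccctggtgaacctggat
Htra4: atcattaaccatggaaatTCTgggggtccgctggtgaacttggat

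Of these 45 bases, 26 were the same in all 4 genes, and any pair shared 32 to 36. In each gene the serine codon lies in a coding exon of 33 bases. This exon is chr7:130581682-130581714 on the plus strand for Htra1, chr6:83030019-83030051 on the minus strand for Htra2, chr5:35822758-35822790 on the minus strand for Htra3 and chr8:25522976-25523008 on the minus strand for Htra4. It is the 5th of 9 coding exons in Htra1, Htra3 and Htra4 and the 4th of 8 in Htra2. Over the aligned coding sequence the 6 pairs were 57.9% to 64.3% identical. Htra1 and Htra3 were the most alike pair, and Htra1 and Htra2 the least alike. The longest run of bases that any 2 members shared exactly in their annotated transcripts was 17 bases, against sequencing reads of 150 bases, so that the reads of 1 member cannot match another member over their full length.

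Htra1 (ENSMUSG00000006205) spans chr7:130537518-130587390 on the plus strand, within the annotated span of Fgfr2 on the other strand. Htra2 (ENSMUSG00000068329) at chr6:83027597-83032254 on the minus strand overlaps Aup1 and Loxl3, which are read in the opposite direction. Htra3 (ENSMUSG00000029096) lies at chr5:35809367-35837126 on the minus strand. Htra4 (ENSMUSG00000037406) at chr8:25514945-25528990 on the minus strand overlaps Tm2d2 and the long non-coding RNA Gm16933 on the plus strand. The library kit keeps the strand, but the strand setting of the counting is not given in the sources used here, so reads of these overlapping genes may be shared. Tm2d2 did not pass the test between genotypes at 6 weeks, at 22 weeks AL or on DR, with log2 fold changes of 0.29, 0.08 and -0.18 and edgeR adjusted p-values of 0.402, 0.804 and 0.479.

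Gene counts per library ran from 921167 to 9616382 with a median of 3256708. At 22 weeks every Ercc1Δ/− library was smaller than every WT library on the same diet, and results are therefore also given with all libraries thinned to 921167 counts. A further mouse labelled WT AL of 22 weeks, replicate 003, had 400410 gene counts and 27.8 normalized counts of Ercc1 (exact Poisson 95% interval 5.74 to 81.3), below the 107.7 to 127 of the 4 other mice of that label and not apart from the 54.1 to 69.8 of the Ercc1Δ/− AL mice. It was left out, as the study did for few reads and for an expression pattern that diverged. Ercc1 itself was lower in the mutants by 1.41, 0.97 and 1.01 on the log2 scale at 6 weeks, at 22 weeks AL and on DR (adjusted p = 3.20e-04, 0.00271 and 5.66e-04, edgeR). At 22 weeks WT and mutant mice did not overlap in Ercc1 on either diet, and at 6 weeks 1 WT mouse with 13 counts, or 52.2 normalized counts, lay within the 31.2 to 56.3 of the mutants. The vessel wall was represented by smooth muscle markers such as Acta2 and Myh11, whose 10 genes summed to 18186 to 46057 CPM (counts scaled to a common library total). The 6 neutrophil markers summed to at most 3.03 CPM in a mouse, and 2 of them, Ly6g and Camp, had 0 counts in all 28 mice. In the mutants 8 of 10 smooth muscle markers were lower and 10 of 11 macrophage markers higher at 22 weeks AL, and 9 of 10 were lower and 6 of 11 higher on DR. Over all genes 6.16% were lower and 5.88% higher at 22 weeks AL, and 7.03% were lower and 5.97% higher on DR. In bulk RNA, fewer cells of a type and less RNA per cell cannot be told apart.

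On a scale that allows genes to be compared, CPM per kilobase of annotated exon, Htra1 was the highest member and Htra3 the next in all 28 mice. Their medians over the 28 mice were 177 for Htra1 and 68.9 for Htra3, against 9.74 for Htra2 and 6.81 for Htra4. The order of the 2 low members depended on the group. Htra4 was below Htra2 in all 5 WT and all 5 Ercc1Δ/− mice of 6 weeks and in all 4 WT AL mice of 22 weeks. It was above Htra2 in 4 of 4 Ercc1Δ/− AL mice, in 4 of 5 Ercc1Δ/− DR mice and in 1 of 5 WT DR mice at 22 weeks. With the length of the longest transcript in place of all exons, these last counts were 4 of 4, 3 of 5 and 0 of 5. Counts were taken over the whole gene body, so both lengths are approximate.

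**Figure D1:**
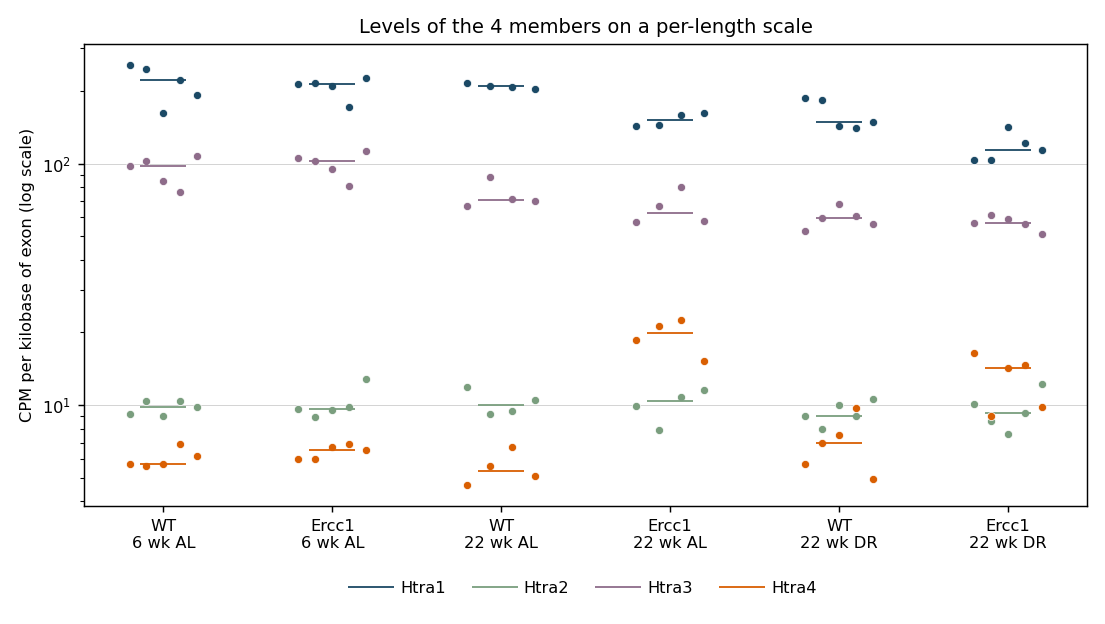
Level of each HtrA family member in CPM per kilobase of exon (y axis, log scale) by group (x axis), with 1 point per mouse and a short line at the group median. Htra1 and Htra3 lay above the other members in every mouse, and the Htra4 points rose above those of Htra2 in all 4 Ercc1Δ/− mice of 22 weeks AL.

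As a share of the family sum on this scale, Htra4 made up 1.88% ± 0.32 (SD, n = 5) in WT and 2.02% ± 0.34 (n = 5) in Ercc1Δ/− mice at 6 weeks. On AL at 22 weeks the shares were 1.86% ± 0.30 (n = 4) in WT and 7.87% ± 1.17 (n = 4) in Ercc1Δ/− mice. On DR they were 2.99% ± 0.92 (n = 5) and 6.54% ± 1.57 (n = 5). The family sum itself was lowest in Ercc1Δ/− DR mice, at 196 ± 16.4 CPM per kilobase (n = 5), and highest in WT mice of 6 weeks, at 325 ± 43.8 (n = 5). Most of that sum was Htra1, which made up 59.4% ± 3.38 (n = 5) in Ercc1Δ/− DR mice and more in the other groups. These shares are given as a description of the family, since they hold the gene that the values selected.

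Htra4 levels are given as normalized counts, which are counts scaled to the mean library of 3683502 counts. At 6 weeks the WT mice had 51.3, 52.1, 52.2, 56.1 and 62.8 and the Ercc1Δ/− mice 54.6, 54.9, 59.5, 61.6 and 63.0 normalized counts of Htra4. The groups overlapped. The difference between genotypes at 6 weeks was 0.11 on the log2 scale (SE 0.15, 95% interval -0.19 to 0.41, adjusted p = 0.824). Between these groups 1.7% of all genes tested passed, 0.567% as higher in the mutant and 1.13% as lower. None of the 4 members passed at 6 weeks (edgeR's quasi-likelihood test with Benjamini-Hochberg adjustment over 12353 genes, at least 1.2-fold), and none passed with DESeq2. At an unadjusted p under 0.05 there were 1584 genes in this comparison, and the lowest unadjusted p of a member was 0.453.

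The 4 WT AL mice of 22 weeks had 42.7, 46.7, 51.1 and 61.5 normalized counts of Htra4 and the 4 Ercc1Δ/− mice 139.4, 170.4, 194.4 and 206.5. The groups did not overlap, and the ratio of their means was 3.52. This is the contrast that selected Htra4, and it is given as a description without a test. Its log2 fold change was 1.80, between ceruloplasmin (Cp), a copper-carrying ferroxidase at rank 2 with 1.62, and Mmp3, a matrix metalloproteinase at rank 4 with 2.55. Of all genes tested, 5.88% passed as higher in the mutant here.

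On DR, which the selection did not use, Htra4 rose in the mutant. The 5 WT DR mice had 45.0, 52.1, 63.9, 69.0 and 88.7 normalized counts and the 5 Ercc1Δ/− DR mice 82.7, 89.5, 129.5, 133.6 and 150.6. Only the highest WT mouse and the lowest Ercc1Δ/− mouse crossed. The means were 63.7 ± 16.9 (SD, n = 5) and 117 ± 29.6 (n = 5), a log2 fold change of 0.95 (SE 0.18, adjusted p = 7.42e-04). Higher genes made up 5.97% of those tested in this comparison. A two-sided exact permutation test of the normalized counts gave p = 0.0159, where 5 against 5 mice can reach 0.00794. With all libraries thinned to 921167 counts the log2 fold change was 0.99 (adjusted p = 0.00684), and with the DR mice alone in the fit, so that the AL mice gave no part of the spread, it was 0.95 (adjusted p = 0.00258).

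Age was compared across diets where the selection left room, between Ercc1Δ/− DR mice of 22 weeks and AL mice of 6 weeks, in which age and diet cannot be told apart. Every one of the 5 restricted mutants (82.7 to 150.6) lay above every young mutant (54.6 to 63.0). Htra4 rose by 1.03 on the log2 scale (SE 0.17, adjusted p = 9.57e-05), in a comparison where 9.75% of all genes passed and 4.23% passed as higher. The same comparison in WT mice gave 0.19 (SE 0.17, 95% interval -0.15 to 0.54, adjusted p = 0.673), where 2.31% of all genes passed and 0.85% passed as higher. The difference between the genotype effect on DR and that at 6 weeks was 0.84 (SE 0.24, unadjusted p = 0.00139), which did not pass after adjustment over all genes (adjusted p = 0.156). In that difference 0.105% of all genes passed, 0.0243% upward and 0.081% downward.

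The remaining contrasts of Htra4 use the AL mice of 22 weeks and are described only. From 6 to 22 weeks AL the log2 fold change was 1.59 in Ercc1Δ/− mice and -0.10 in WT mice. From AL to DR at 22 weeks it was -0.54 in Ercc1Δ/− mice, with group means of 178 ± 29.6 (n = 4) and 117 ± 29.6 (n = 5), and 0.27 in WT mice, with 50.5 ± 8.11 (n = 4) and 63.7 ± 16.9 (n = 5). In both genotypes the AL and DR mice overlapped.

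**Figure D2:**
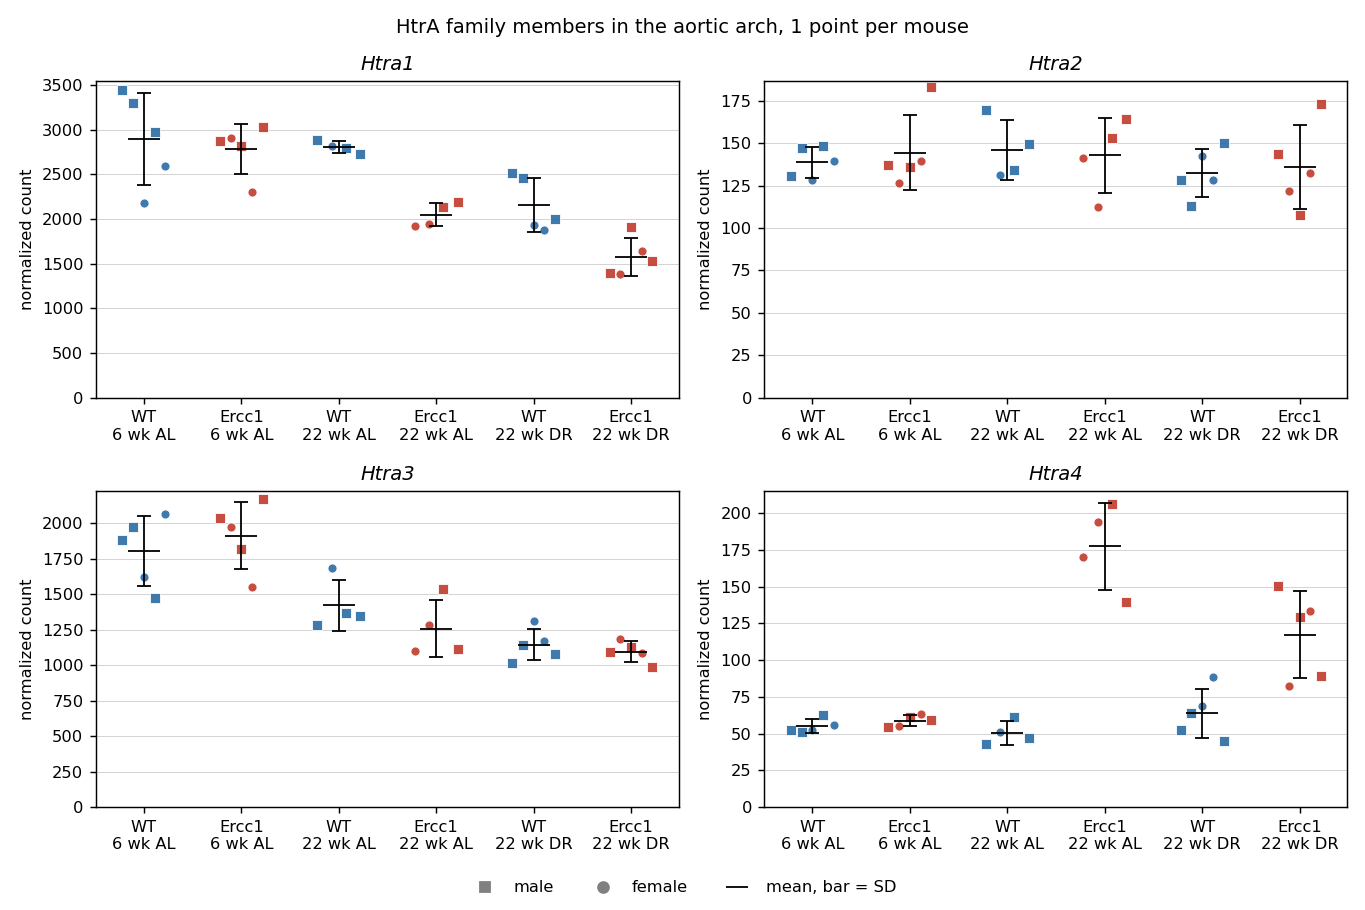
Normalized counts (y axis, from 0) of Htra1, Htra2, Htra3 and Htra4 in each of the 6 groups (x axis), with 1 point per mouse, squares for males and circles for females, and the group mean with a bar of 1 SD. Htra4 was highest in the 4 Ercc1Δ/− AL mice of 22 weeks, at 139.4 to 206.5, Htra1 stepped down in mutants of 22 weeks and on DR, and the Htra2 groups overlapped throughout.

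Macrophage markers such as C1qa, Csf1r and Adgre1 were higher in sum beside Htra4 in mutants of 22 weeks, on both diets. Their 12 genes summed to 248.7 to 282 CPM in WT and 281.8 to 701 CPM in Ercc1Δ/− mice at 6 weeks, to 293 to 431 and 682.5 to 1195 CPM at 22 weeks AL, and to 201.6 to 353 and 452 to 1366 CPM on DR. At 6 weeks, where Htra4 differed by 0.11 on the log2 scale, the median sum was 254 CPM in WT and 488 CPM in Ercc1Δ/− mice. In restricted mutants the median sum was 470 CPM. None of the 12 was at 0 in all mice. The order of mice within groups was not the same for both measures. Among Ercc1Δ/− AL mice, replicate 013 had the highest Htra4 at 206.5 and the lowest marker sum at 682.5 CPM. Replicates 026, 004 and 005 rose in the same order on both measures, with marker sums of 849, 1059 and 1195 CPM. Among the DR mutants, replicate 016 had a marker sum of 1366 CPM and an Htra4 level of 129.5, the median of its group. Between restricted and young mutants, where Htra4 rose by 1.03, the median log2 fold change of the 11 tested macrophage markers was 0.13, and 2 of them passed as higher. The part of macrophages in the level of Htra4 at 22 weeks AL was not tested.

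**Figure D3:**
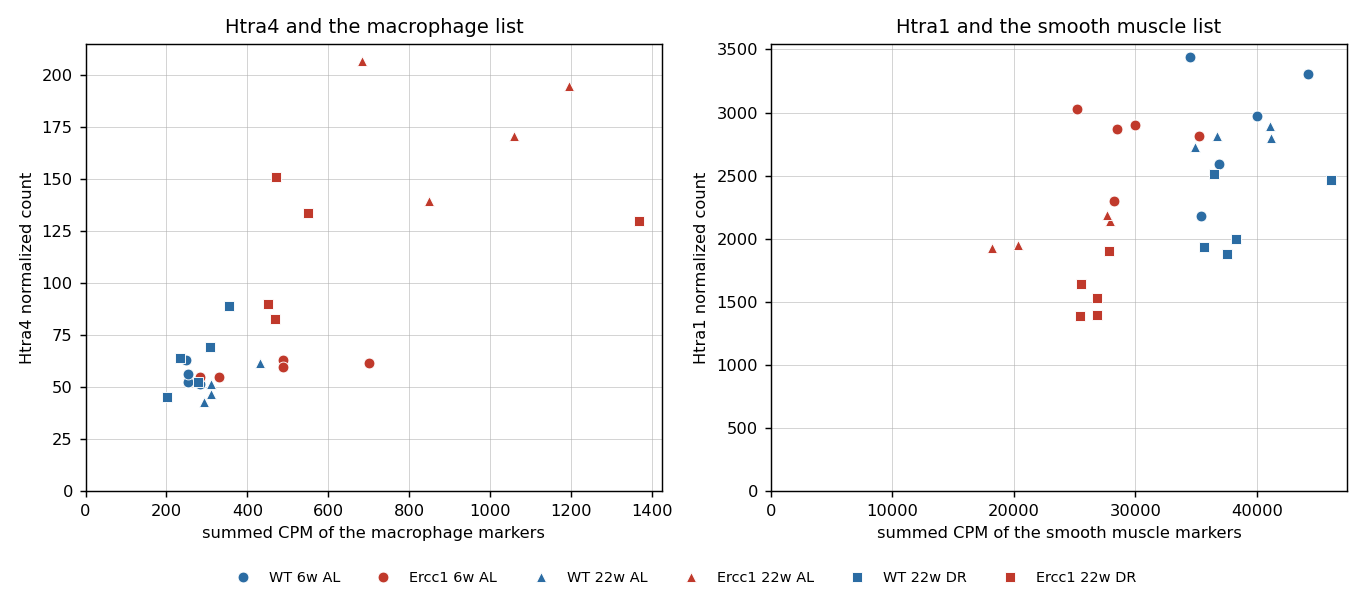
Left, normalized count of Htra4 (y axis) against the summed CPM of 12 macrophage markers (x axis), and right, normalized count of Htra1 against the summed CPM of 10 smooth muscle markers, with 1 point per mouse and both axes from 0. Young Ercc1Δ/− mice held 54.6 to 63.0 normalized counts of Htra4 with marker sums of up to 701 CPM, and restricted Ercc1Δ/− mice 82.7 to 150.6 with sums from 452 CPM.

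Htra1, the secreted protease that cleaves matrix and TGF-beta pathway proteins, fell in the mutant at 22 weeks on both diets. At 6 weeks WT mice had 2182, 2589.9, 2974, 3303 and 3441 normalized counts and Ercc1Δ/− mice 2299.7, 2818, 2873, 2904 and 3026. These ranges overlapped, with a log2 fold change of -0.04 (95% interval -0.23 to 0.15, adjusted p = 0.905). The WT AL mice of 22 weeks had 2729, 2798, 2816 and 2889 and the mutants 1926, 1949, 2137 and 2185, without overlap. The log2 fold change of Htra1 was -0.41 (SE 0.10, adjusted p = 0.0102), and 6.16% of all genes tested passed as lower. This call rested on 1 WT mouse, since without replicate 018, the only female of its group, the value was -0.33 (adjusted p = 0.0851). It was also lost when replicate 003, another female with 1409 normalized counts of Htra1, was added (-0.30, adjusted p = 0.154).

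On DR the WT mice had 1879.8, 1930.1, 1999, 2462 and 2513 normalized counts of Htra1 and the mutants 1385, 1393, 1530.0, 1641 and 1905. Only 1 mutant reached the WT range. The log2 fold change was -0.45 (SE 0.09, adjusted p = 0.00123), in a comparison where 7.03% of all genes passed as lower, and it lay between -0.52 and -0.38 when each of the 10 mice was left out in turn. The genotype effects at 22 weeks AL and at 6 weeks differed by -0.37 (95% interval -0.65 to -0.09, adjusted p = 0.267), where 0.842% of all genes passed, so a change of the effect with age was not shown for Htra1.

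Htra1 was lower on DR than on AL in both genotypes, close to the threshold. In WT mice the log2 fold change from AL to DR was -0.37 (SE 0.09, adjusted p = 0.0453), with 1.28% of all genes passing and 0.939% lower, and in Ercc1Δ/− mice -0.39 (SE 0.10, adjusted p = 0.0379), with 0.988% lower and 0.648% higher. The groups did not overlap in either genotype. In both, the call was lost for 7 of the 9 mice when each was left out, with values of -0.43 to -0.32 in WT and -0.45 to -0.33 in mutants, and with replicate 003 added the adjusted p-values were 0.419 and 0.145. The diet effects of the genotypes differed by -0.02 (95% interval -0.29 to 0.26, adjusted p = 0.984), where 0.0971% of all genes passed, 0.0567% upward and 0.0405% downward.

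Aging from 6 to 22 weeks on AL, Ercc1Δ/− mice had less Htra1, with a log2 fold change of -0.43 (SE 0.10, adjusted p = 0.0100), where 4.69% of all genes passed, 2.57% as lower and 2.11% as higher, and the groups did not overlap. With replicate 003 in the same fit the adjusted p was 0.0736. In WT mice the difference was -0.06 (95% interval -0.26 to 0.14, adjusted p = 0.937), where 0.235% of all genes passed. The largest span was that from young AL mice to restricted mice of 22 weeks, with -0.82 in Ercc1Δ/− mice (SE 0.10, adjusted p = 3.54e-07) and -0.42 in WT mice (SE 0.09, adjusted p = 0.00893). Lower genes made up 5.52% and 1.46% of those tested. These genotype, diet and age comparisons share mice with each other and are not independent.

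Smooth muscle markers were lower beside Htra1 between genotypes at 22 weeks. Their 10 genes summed to 34875 to 41181 CPM in WT and 18186 to 27930 CPM in Ercc1Δ/− mice at 22 weeks AL, and to 35646 to 46057 and 25462 to 27808 CPM on DR. At 6 weeks, where Htra1 differed by -0.04 and 1.13% of all genes were lower, 2 of the 10 were lower in mutants and their median was -0.35. From AL to DR, 0 of 10 passed in WT mice and 1 of 10, as higher, in mutants, with median log2 fold changes of 0.04 and 0.08. Over all genes 1.28% passed in WT mice and 1.64% in mutants. At an unadjusted p under 0.05 there were 1581 genes in the WT diet comparison. Between genotypes their median log2 fold changes were -0.73 at 22 weeks AL and -0.60 on DR, against -0.41 and -0.45 for Htra1. The part of smooth muscle content in the genotype difference was not tested.

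Htra3, the closest relative of Htra1 by coding sequence and likewise a secreted inhibitor of TGF-beta signalling in cell assays, was lower in mutants of 22 weeks AL than in young mutants, and in restricted mice of both genotypes than in young mice. At 6 weeks it had 1473, 1623, 1883, 1973 and 2064 normalized counts in WT mice and 1554, 1819.6, 1977, 2038 and 2172 in Ercc1Δ/− mice. The WT AL mice of 22 weeks had 1279.7, 1347, 1371 and 1687 and the mutants 1103, 1112, 1283 and 1535. On DR the WT mice had 1017, 1079.8, 1144, 1170.1 and 1308 and the mutants 985, 1086, 1089.5, 1129.9 and 1185. WT and mutant mice overlapped at each age and diet, and in mutants every mouse of 22 weeks, on either diet, lay below every young mouse. In WT mice the restricted mice alone lay wholly below the young ones. Genotype log2 fold changes of Htra3 were 0.09, -0.18 and -0.06 at 6 weeks, 22 weeks AL and DR, and none passed (adjusted p = 0.824, 0.422 and 0.743).

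From 6 weeks AL to 22 weeks DR, Htra3 fell in both genotypes, by 0.81 (log2) in the mutants (SE 0.11, adjusted p = 4.34e-06) and by 0.66 in WT mice (SE 0.11, adjusted p = 2.69e-04), with no overlap between the ages. From 6 to 22 weeks AL it fell by 0.61 in Ercc1Δ/− mice (SE 0.13, adjusted p = 0.00514), and in WT mice the value was -0.34 (SE 0.13, adjusted p = 0.383). The 2 age effects of Htra3 differed by -0.27 (95% interval -0.64 to 0.10, adjusted p = 0.624). From AL to DR the values were -0.33 in WT mice (adjusted p = 0.103) and -0.18 in mutants (adjusted p = 0.409). Fibroblast markers such as Dcn and Pdgfra were read beside Htra3 in the comparisons of 6 with 22 weeks. Between genotypes at 22 weeks some were also lower in mutants, where Htra3 did not pass. From 6 weeks AL to 22 weeks DR, 7 of 10 were lower and 2 higher in Ercc1Δ/− mice and 3 of 10 lower in WT mice, with median log2 fold changes of -0.69 and -0.42. Over all genes 5.52% were lower and 4.23% higher in mutants and 1.46% lower in WT mice. From 6 to 22 weeks AL, 5 of 10 were lower in mutants and 1 of 10 in WT mice, against 2.57% and 0.138% of all genes, and their part in the fall of Htra3 was not tested. The counts are per gene and do not separate the long and short forms of Htra3.

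Since Htra1 and Htra3 both fell from young to restricted mice in both genotypes, the 250 bases before the start of each are shown, from the RefSeq promoter table on GRCm38.p6, with motif matches in capitals. Htra2 and Htra4 are not in that table.
Htra1, chr7:130935953-130936202, plus strand: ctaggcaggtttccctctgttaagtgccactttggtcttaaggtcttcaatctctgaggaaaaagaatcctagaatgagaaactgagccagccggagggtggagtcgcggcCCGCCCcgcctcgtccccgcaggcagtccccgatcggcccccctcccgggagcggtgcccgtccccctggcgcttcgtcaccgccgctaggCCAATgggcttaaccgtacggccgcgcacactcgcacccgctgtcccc
Htra3, chr5:35679781-35680030, minus strand: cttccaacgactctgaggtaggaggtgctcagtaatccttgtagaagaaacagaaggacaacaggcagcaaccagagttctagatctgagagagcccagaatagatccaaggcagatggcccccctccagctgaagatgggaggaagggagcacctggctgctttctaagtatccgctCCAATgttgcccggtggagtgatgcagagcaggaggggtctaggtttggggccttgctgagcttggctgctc

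These windows were searched on both strands for 6 motifs that do not overlap one another in them, namely the TATA box (TATAAA), the core of the NF-Y site (CCAAT), the GC box (GGGCGG), the E-box (CACGTG), the AP-1 site (TGACTCA) and the SMAD element (CAGAC). Both held CCAAT, which begins 48 bases before the start of Htra1 and 72 bases before that of Htra3. CCAAT was present in 33.8% of 32851 promoter windows of the same length. The Htra1 window alone held a GC box, on the opposite strand (CCGCCC) 139 bases before the start, as did 32.7% of all windows. The TATA box, E-box, AP-1 site and SMAD element were in neither window and in 12.4%, 6.02%, 4.46% and 42.2% of all windows. The Htra1 window was 64.8% G and C with 22 CG pairs and the Htra3 window 54.8% with 3, against a median of 52.4% G and C over all windows. A match is a description of the letters and not a bound site.

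Htra2, the mitochondrial member, did not pass in any of the 13 comparisons in which it was tested. Its group means ran from 132.5 ± 14.4 normalized counts (SD, n = 5) in WT DR mice to 146.2 ± 17.7 (n = 4) in WT AL mice of 22 weeks, and all 28 mice lay between 108.0 and 183. Every pair of groups compared overlapped. Genotype log2 fold changes were 0.06 at 6 weeks (95% interval -0.17 to 0.30) and 0.03 on DR (-0.23 to 0.30). For 22 weeks AL the fit gave an interval of -0.30 to 0.30. The largest value in either direction was 0.13, for males against females, and the lowest adjusted p was 0.693. The intervals leave room for differences of up to 0.30 on the log2 scale between genotypes at this depth, with 31 to 394 counts of Htra2 per mouse. The antisense neighbours Aup1 and Loxl3 did not pass between genotypes either, with adjusted p-values of 0.333 to 0.995.

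**Figure D4:**
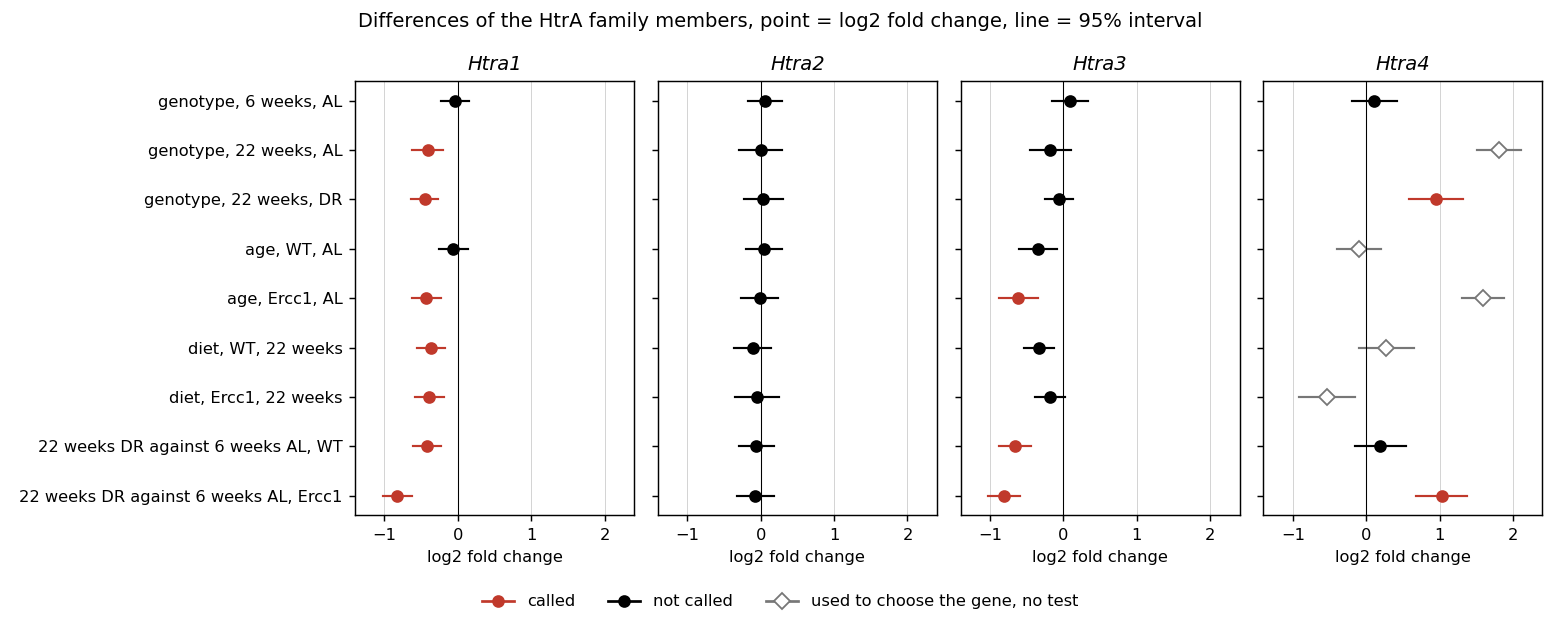
Log2 fold changes (x axis) with 95% intervals for each HtrA family member in 9 comparisons (y axis), with red points where the member passed the test, black points where it did not and open grey diamonds where the mice had served to select Htra4. Red points lie below 0 for Htra1 in 7 comparisons and for Htra3 in 3, and above 0 for Htra4 in 2.

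Over the 45 member results that could be tested, 12 passed. Htra1 was lower in 7 of 13 comparisons, Htra3 lower in 3 of 13, Htra2 in 0 of 13 and Htra4 higher in 2 of 6. Across the 13 comparisons 0.0971% to 13% of all genes passed. The comparisons share mice, so these counts are not independent results. Sex was a term in each fit, and no member passed between males and females, where 0.186% of all genes passed, 0.089% as higher in males. Htra1 was 0.20 higher in males on the log2 scale (SE 0.06, unadjusted p = 0.00179, adjusted p = 0.214), and the males were not evenly spread, with 3 of 4 in the WT AL group of 22 weeks and 2 of 4 in the mutant AL group.

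The genes on which HtrA proteases act, or with which they share a domain, were read from lists. Among 12 tested substrates and binding partners of HtrA1 and HtrA3, 3 were lower and 1 higher in Ercc1Δ/− mice at 22 weeks AL, when 12% of all genes passed in either direction, and the median of the list was -0.22 against 0.03 over all genes. The lower genes were fibulin 5 (Fbln5), an elastic fibre protein, with -0.68 (SE 0.12, adjusted p = 7.40e-04), fibromodulin (Fmod), a collagen-binding proteoglycan, with -2.10 (SE 0.34, adjusted p = 0.00104), and Ltbp1, which holds latent TGF-beta in the matrix, with -0.58 (SE 0.11, adjusted p = 0.00150). Thrombospondin 1 (Thbs1), which can activate latent TGF-beta, rose by 1.45 (SE 0.38, adjusted p = 0.0199). On DR 5 of 12 were lower and 0 higher, when 13% of all genes passed. They were Fbln5 (-0.66), Ltbp1 (-0.52), Fmod (-1.62), the small proteoglycan biglycan (Bgn, -0.40) and the large proteoglycan aggrecan (Acan, -1.57), with adjusted p-values of 1.12e-04 to 0.00189. At 6 weeks Acan passed, with -1.27 (adjusted p = 0.0269), and over the other settings 0 to 3 genes of the list did. From AL to DR in mutants Bgn fell by 0.35 (adjusted p = 0.0389), when 1.64% of all genes passed, and no gene of the list passed with replicate 003 added, without the sex term or with only the compared groups.

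Smooth muscle markers were lower in the same comparisons at 22 weeks, in 8 of 10 on AL and 9 of 10 on DR, and fibroblast markers in 4 of 10 on each diet. Over all genes 6.16% were lower on AL and 7.03% on DR. Acan is also on the chondrocyte marker list. The 9 genes of that list summed to 125 to 192 CPM in WT and 86.6 to 126 CPM in Ercc1Δ/− mice at 6 weeks. At 22 weeks AL the sums were 162 to 253 and 133 to 207 CPM, and on DR 131 to 198 and 81.7 to 146 CPM. The part of these markers in the substrate, TGF-beta and SMAD target lists was not tested.

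Ligands and receptors of the TGF-beta family moved in both directions. Of 14 tested, 3 were lower in mutants at 22 weeks AL, the ligands Tgfb3 (-0.69, SE 0.13) and Tgfb2 (-0.58, SE 0.14) and the BMP receptor Bmpr1a (-0.34, SE 0.11), and the co-receptor endoglin (Eng) was higher (0.45, SE 0.12). Their adjusted p-values were 9.20e-04, 0.00674, 0.0459 and 0.0168, when 12% of all genes passed. On DR, when 13% passed, Tgfb2 (-0.81) and Tgfb3 (-0.52) were lower and the co-receptor Tgfbr3 higher (0.35), and none of the 14 passed at 6 weeks. From AL to DR in mutants Eng fell by 0.40 (adjusted p = 0.0213), a call that was lost with only the compared groups in the fit and after thinning.

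Of 14 genes that SMAD proteins are known to activate, 8 were lower and 0 higher in mutants than in WT mice on DR, when 7.03% of all genes were lower, led by periostin (Postn, -0.69, SE 0.10), Pmepa1 (-0.50, SE 0.09) and Smad7, an inhibitor of the pathway (-0.73, SE 0.13), with adjusted p-values of 2.89e-05, 3.29e-04 and 3.66e-04. The list's median was -0.41 against 0.00 over all genes. On AL at that age 2 of the 14 were lower, Tgfbi (-0.74) and Postn (-0.38), and Ltbp2 was higher (0.37), when 12% of all genes passed. From AL to DR in mutants 0 of the 14 passed in edgeR and 2 with DESeq2, where 1853 genes had an unadjusted p under 0.05. At 6 weeks Postn (-0.39) and Ccn2 (-0.88) were lower, when 1.7% of all genes passed, and 0 of the 14 passed with only the compared groups in the fit.

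Among 12 genes with an IGFBP-type domain, the module that HtrA1, HtrA3 and HtrA4 carry at their amino end, Ccn5 (-0.78, SE 0.12) and Crim1 (-0.65, SE 0.14) were lower in mutants at 22 weeks AL (adjusted p = 1.74e-04 and 0.00389), when 6.16% of all genes were lower. On DR, when 7.03% were lower, Igfbp4 (-0.49, SE 0.09), Ccn1 (-1.16, SE 0.29) and Igfbp7 (-0.29, SE 0.09) were lower, and none was higher on either diet. At 6 weeks Ccn2 passed, and over the other settings 0 to 3 genes of the list did, with 0 without the filter, with only the compared groups and after thinning. Igfbp4 fell from AL to DR in mutants by 0.38 (adjusted p = 0.0350), and no gene of the list passed with replicate 003 added or with all 6 groups in the fit.

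Other secreted serine proteases, and serpins, a family with many protease inhibitors, changed in both directions. In 22-week AL mutants the serpin Serpina3n rose by 2.22 (SE 0.24, adjusted p = 1.58e-05), the complement inhibitor Serping1 by 0.71 (SE 0.13, adjusted p = 9.18e-04) and Serpinb6a by 0.30 (SE 0.09, adjusted p = 0.0231), of 13 genes tested, when 5.88% of all genes were higher and 6.16% lower. The protease Prss23 (-0.58, SE 0.11) and Serpinf1 (-0.59, SE 0.12), which is also on the fibroblast marker list, fell. On DR, when 7.03% of all genes were lower, 6 of 13 were, led by Prss23 (-0.86, SE 0.09, adjusted p = 8.16e-07), Prss12 (-0.61, SE 0.13) and Serpine2 (-0.48, SE 0.11), and Serpina3n was higher (1.37, SE 0.20, adjusted p = 3.31e-04). At 6 weeks Prss23 was lower by 0.87 on the log2 scale and was the 1 gene of this list that passed, against 2 with DESeq2. Serpine2 fell from AL to DR in mutants by 0.54 and the plasminogen activator Plau by 1.31 (adjusted p = 0.0133 and 0.0408), and these 2 calls became 0 with only the compared groups and 1 with replicate 003 added or with all 6 groups.

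Genes that act beside HtrA2 were read in the same way. Of 19 mitochondrial proteases and quality control genes 0 passed at 6 weeks and 0 at 22 weeks AL in edgeR, where 3220 genes had an unadjusted p under 0.05, with list values between -0.40 and 0.47 in the latter. On DR 2 of 19 passed, near the 13% of all genes, with the protease subunit Clpx higher (0.37, SE 0.12, adjusted p = 0.0438) and the chaperonin Hspd1 lower (-0.43, SE 0.14, adjusted p = 0.0455). Of 14 apoptosis factors of the intermembrane space and their inhibitors, 0 passed at 22 weeks AL, with a list median of 0.32 against 0.03 over all genes. On DR 3 of the 14 were higher, when 5.97% of all genes were, among them the inhibitors of apoptosis Birc2 (0.41, SE 0.11) and Birc3 (0.75, SE 0.21), with adjusted p-values of 0.0115 and 0.0201. With libraries thinned to 921167 counts, 0 of these 14 and 1 of the 19 mitochondrial genes passed on DR.

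**Figure D5:**
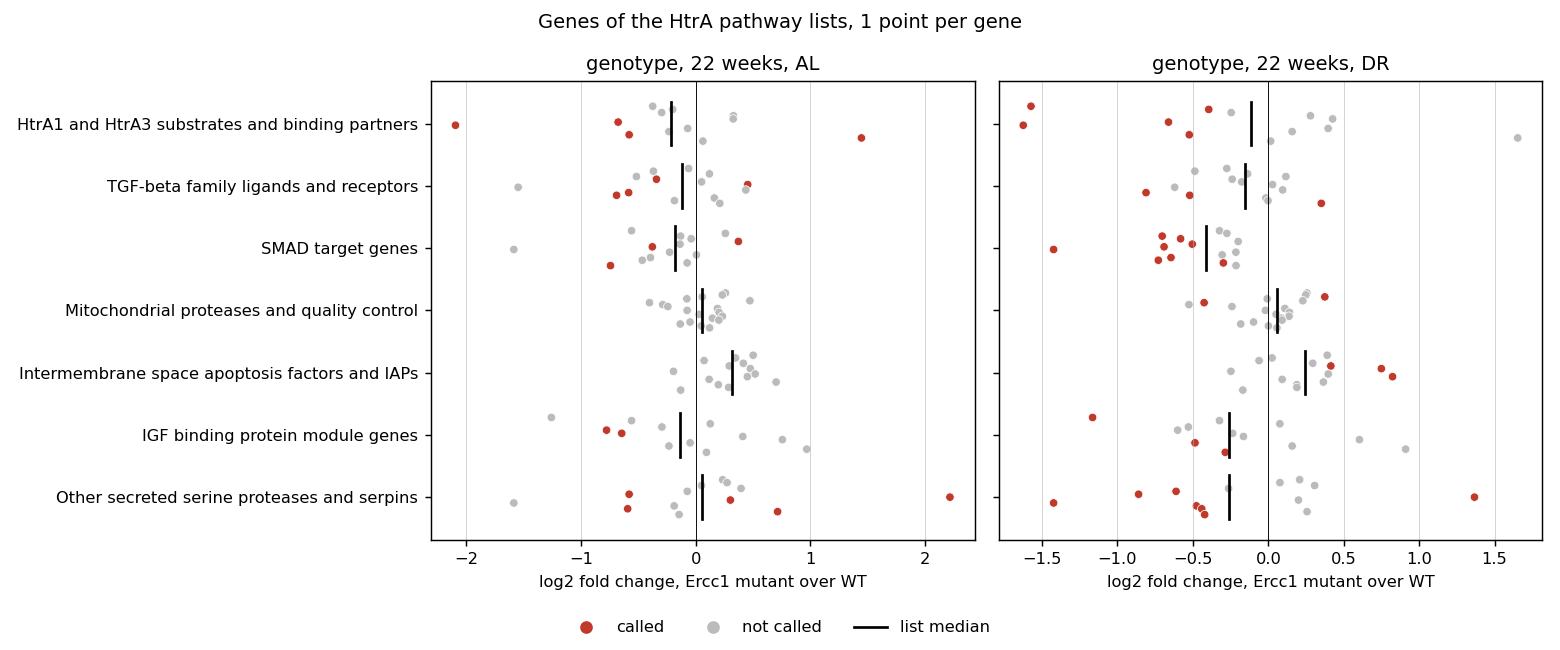
Log2 fold change of Ercc1Δ/− over WT mice (x axis) for each tested gene of 7 lists related to the HtrA proteases (y axis), at 22 weeks AL on the left and on DR on the right, with red points for genes that passed, grey points for genes that did not and a black line at the list median. On DR 8 of 14 SMAD targets lie on the lower side in red, and Serpina3n is the red point farthest to the right in both panels.

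The genes whose levels were most like those of Htra4 over the 28 mice were Cp (Pearson r 0.93), the ferritin light chain Ftl1 (0.90), the guanine deaminase Gda (0.90), the oncostatin M receptor Osmr (0.88) and Serpina3n (0.88), on log2 CPM. These values largely follow the group contrast that selected Htra4. With group means and sex taken out, the nearest 5 were Zfp975 (0.76), Bzw1 (0.75), Lrrc8a (0.72), Arid4b (0.71) and Txndc9 (0.70). On this scale the nearest 3 were Gps1 (0.79), Tubb4a (0.77) and Hvcn1 (0.76) for Htra1, Rhbdd3 (0.78), Iba57 (0.78) and D830050J10Rik (0.76) for Htra2, and Itih4 (0.80), Cercam (0.79) and Acbd4 (0.79) for Htra3. None of the 5 nearest genes of Htra4 on 1 scale was among its 5 nearest on the other. Between members, r with group means and sex taken out ran from -0.38 for Htra1 and Htra2 to 0.32 for Htra1 and Htra3. All of these are descriptions over 28 mice that share library depth and tissue composition.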

How the data were processed

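RNA of the aortic arch of 29 mice was sequenced as paired reads of 150 bases. Per the labels and the study's methods, the authors trimmed reads with fastp, aligned them to GRCm39 with STAR 2.7.10a, removed duplicates with UMI-tools 1.1.2 and counted reads over the whole gene body with HTSeq 2.0.2 (Ensembl genes). The authors deposited these counts as whole numbers, not normalized. The 5 lines that name no gene (12.6% to 18.7% of reads) stayed out of library sizes and tests. Symbols and positions were taken from GENCODE M39, a later release than that of the counts.

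Mice were grouped by the labelled genotype, age and diet. Replicate 003 was left out, as in the study, which gave low read counts and a diverging profile as reasons. Testing was limited to genes that exceeded 10 counts in over 10 of these 28 mice, with edgeR 4.0.16 (TMM, robust quasi-likelihood test) in R 4.3.3, with group and sex in the model. The 18 AL mice were fitted for genotype and age on AL, the 18 mice of 22 weeks for diet and for genotype on DR, and all 28 for the remaining comparisons. A gene passed when its p-value, adjusted over all genes by Benjamini-Hochberg, did not exceed 0.05 and its change reached 1.2-fold (no fold limit for differences between effects). DESeq2 1.42.0 was an alternative, and the procedure was tested on simulated data. Exact permutation tests were two-sided and used Python 3.11.15. Counting error limits the rarest member, Htra4, whose lowest count of 13 has an exact Poisson 95% interval of 6.92 to 22.2. Each sample is 1 mouse. The edgeR tests set a difference against the spread between mice, estimated over all groups of the fit with information from the other genes.

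The members and lists were chosen with earlier results of these data known. Named genes were the 4 members, Ercc1, the genes ranked next to Htra4, up to 3 genes per direction that passed on each list by p (further ones were named after their values were seen), and the genes most alike by correlation. Lists covered HtrA1 and HtrA3 substrates, TGF-beta ligands and receptors, SMAD targets, IGFBP-domain genes, serine proteases and serpins, mitochondrial quality control, intermembrane space apoptosis factors, and markers of smooth muscle, fibroblasts, macrophages and neutrophils. Markers of endothelial cells, lymphocytes, adipocytes, cardiomyocytes, chondrocytes, mesothelium and erythroid cells were summed as well. Of these only the chondrocyte markers are described here. Alternatives were DESeq2, RLE size factors, no filter, replicate 003 added, no sex term, only the compared or all 6 groups in the fit, thinning to 921167 counts, and each mouse left out. For likeness, Spearman correlation took the place of Pearson correlation. The earlier dispersion method of edgeR was added after seeing the data. The result of 1 listed gene is not reported here.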

Additional observations from a re-analysis of the deposited data

Results flagged for a closer look

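A gap of 1 mouse to the rest of its group was looked for in the 24 combinations of member and group, which chance alone flags in about 1 of 20 groups of this size, and it was found in 2. In Ercc1Δ/− mice of 6 weeks, replicate 023 stood below the others for Htra1 with 2299.7 normalized counts, a gap of 0.714 of the group's range. In the same group, replicate 027 stood above the others for Htra2 with 183 normalized counts, a gap of 0.771 of the range.

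Replicate 003, the mouse labelled WT AL of 22 weeks that enters no comparison, held 14 counts of Htra4, which scale to 129.8 normalized counts (exact Poisson 95% interval 71.0 to 218). The 4 WT mice of its group had 42.7 to 61.5, so it lay above them and within the range that the Ercc1Δ/− DR mice covered. Its Htra1 level of 1409 (1194 to 1652) lay below the 2729 to 2889 of its group, and its Htra3 level was 1159 (965 to 1381) against 1279.7 to 1687. For Cp its level of 194.7 (120.5 to 297.6) lay within the 163.3 to 195.3 of its group and below the 467.8 to 628.3 of the Ercc1Δ/− AL mice. For Mmp3 its level of 74.2 (32.0 to 146) lay between the 17.5 to 41.9 of its group and the 140.8 to 200.9 of the Ercc1Δ/− AL mice. The intervals cover counting error only. Replicate 003 had the lowest total of all 29 libraries, and its 3 counts of Ercc1 scale to 27.8 normalized counts (5.74 to 81.3), below the 107.7 to 127 of the 4 other mice of its label. The part of its low depth in these levels was not tested.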

How the results depend on the processing

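No paired analysis was possible because every mouse has a number of its own, so that groups share no replicate number. Over the settings that kept all 28 mice or added replicate 003, Htra3 kept direction and call in all but 2 of 109 values, Htra1 in 97 and Htra2 in 98, and Htra4 kept its direction, and its call where it was tested, in 108. With each mouse left out, Htra3 and Htra4 did so in 168 of 168 values, Htra1 in 146 and Htra2 in 139. The cause of the changes below was not tested, except that thinning and leaving out mice reduce the data.

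The genotype call of Htra1 at 22 weeks AL was lost with replicate 003 added (-0.30, adjusted p = 0.154), and over left-out mice its values ran from -0.44 to -0.33. The age call of Htra1 in mutants was lost with replicate 003 (-0.42, adjusted p = 0.0736). Its diet call in WT mice was lost with replicate 003 (-0.26), without the sex term (-0.38), with only the compared groups (-0.37), with all 6 groups (-0.36) and after thinning (-0.42), with adjusted p-values of 0.0503 to 0.419, and left-out values ran from -0.43 to -0.32. In mutants the diet call was lost with replicate 003 (-0.40), without the sex term (-0.37) and with only the compared groups (-0.38), with adjusted p-values of 0.0727 to 0.145, and left-out values ran from -0.45 to -0.33. Htra3 passed for diet in WT mice without the filter and with only the compared groups (-0.36 in both, adjusted p = 0.0257 and 0.0278).

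Signs turned in 50 values, none of them called, the largest 0.104 in size. The Htra2 genotype value at 22 weeks AL, 7.48e-05, became -0.0158 with DESeq2, -0.0100 with RLE, -0.0718 without the filter, -0.0603 with replicate 003, -0.0573 without sex, -0.0134 with all 6 groups and -5.20e-04 with the earlier dispersion method. On DR without the filter it was -0.0191. After thinning Htra2 gave 0.0268 for age in mutants, 0.00362 for genotype by age and 0.104 for the genotype effect on DR minus that at 6 weeks, and Htra1 gave 0.00759 for age in WT mice. Htra4 for age in WT mice was 0.0237 with replicate 003, and Htra1 for genotype by diet 0.0112 without sex. With mice left out, Htra1 ran from -0.109 to 0.00818 for genotype at 6 weeks and from -0.0773 to 0.0407 for genotype by diet. Htra2 ran from -0.0274 to 0.113, -0.0640 to 0.0630 and -0.0585 to 0.118 for genotype at 6 weeks, 22 weeks AL and DR, from -0.00761 to 0.0934 and -0.0599 to 0.0693 for age in WT and mutants, from -0.142 to 0.0300 for diet in mutants, from -0.111 to 0.0161 for genotype by age, from -0.0291 to 0.132 for genotype by diet, from -0.166 to 0.0117 and -0.111 to 2.23e-04 for restricted against young mutants and WT mice, and from -0.109 to 0.0682 for the genotype effect on DR minus that at 6 weeks.

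Thinning reduced the genes called between genotypes from 1487 to 762 at 22 weeks AL, from 1605 to 1063 on DR and from 210 to 130 at 6 weeks, where DESeq2 called 378 and the fit of only those groups 121. For restricted against young mice the counts fell from 1204 to 799 in mutants (695 with only those groups) and from 285 to 126 in WT mice. Diet calls in WT mice fell from 158 to 99 with replicate 003, 55 without sex, 66 with all 6 groups and 51 thinned, against 299 without the filter, and in mutants from 202 to 101 with replicate 003 and 90 with only those groups, against 348 with DESeq2. Age calls were 338 thinned against 579 in mutants, and 17 thinned, 67 without the filter and 106 with DESeq2 against 29 in WT mice. Genotype by age gave 104 calls, 197 with DESeq2 and 68 thinned, genotype by diet 12, 43 with DESeq2, 39 without the filter and 2 to 5 with replicate 003, without sex, with all 6 groups or thinned, the genotype effect on DR minus that at 6 weeks 13, 89 with DESeq2 and 0 to 7 with RLE, replicate 003, no sex term, only those groups or thinning, and sex 23, 52 with DESeq2 and 49 without the filter. With only the compared groups, 5 SMAD targets instead of 3 and 4 IGFBP-domain genes instead of 2 passed at 22 weeks AL. On DR, 0 mitochondrial genes instead of 2 passed without the filter or without sex, and 5 IGFBP-domain genes instead of 3 with DESeq2. Without sex, 2 apoptosis factors instead of 0 passed at 22 weeks AL.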
